A study of Homo sapiens with 4 samples.

Results

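The 40 genes described here encode the machinery that makes ribosomes: RNA polymerase I with its factors, the small nucleolar ribonucleoproteins that modify ribosomal RNA, and the assembly factors of both ribosomal subunits. They were chosen by name, as the listed symbols with a mean of at least 1 FPKM (mapped fragments scaled by transcript length and library size) over the 4 libraries. All 40 were found among the 26255 symbols of the table and all 40 met that level, as did 12260 genes in all. The lowest means were those of UTP20 at 2.50 FPKM and UTP15 at 3.54 FPKM, and no listed gene fell below the limit. The rule uses names and the mean level only, and the list of names was drawn up with earlier results of these data known.

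The cells were TOV21G, an established human line labelled as ovarian clear cell carcinoma. The groups were cells without drugs, cells given As2O3 at 1 µM for 48 h, cells given GSK458 at 0.1 µM for 48 h, and cells given both drugs at these doses and times. No time is stated for the control. As2O3 is arsenic trioxide, a drug that reacts with thiols, and GSK458 inhibits the kinases PI3K and mTOR. The series title names a synergy of both drugs, so each drug and the combination were set against the control, and the combination was set against each drug alone.

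Ribosome production starts in the nucleolus, where RNA polymerase I transcribes the long precursor of ribosomal RNA. Box C/D particles methylate this RNA, box H/ACA particles convert uridines to pseudouridine, and processing complexes cut and fold it together with ribosomal proteins. The pathway is known as a large consumer of energy in growing cells, and signalling through mTOR and transcription by MYC are known to promote it. The libraries hold poly(A) messages, so ribosomal RNA itself was not measured.

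Each group is a single library, so the differences carry neither an error nor a test and describe these 4 libraries only. FPKM sums ran from 543975 to 588892, and depth in reads is unknown. Relative depth, read from the step sizes of low FPKM values, was 96.3% of the control under As2O3, 109% under GSK458 and 85.8% under the combination. All 7 epithelial and clear cell markers reached 1 FPKM in at least 1 library, and they summed to 646 to 809 FPKM. Of the immune markers 1 of 5 did, of the endothelial 0 of 4 and of the fibroblast 1 of 5. Their sums were 1.015 to 4.32, 0.017 to 0.079 and 1.92 to 4.69 FPKM, with PTPRC, CD3E, KDR, COL3A1 and LUM listed at 0 in all libraries. FPKM is relative to the whole library, so a change in the total amount of message per cell does not show. The RNA came from whole cultures, so fewer messages of a gene per cell and fewer cells that express it cannot be told apart.

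The members spanned a wide range of levels. NPM1, a nucleolar chaperone, was the most abundant in each library, at 913 FPKM without drugs, 1024 under As2O3, 1533 under GSK458 and 1192 under the combination. FBL, NOP10, NCL and NHP2 took the next 4 places in each library, and FBL and NOP10 changed places in the combination. The summed level of all 40 genes was 2472 FPKM without drugs, 2633 under As2O3, 3053 under GSK458 and 2594 under the combination. Without NPM1 the sums were 1559, 1609, 1520 and 1402 FPKM, so the GSK458 library was the highest with NPM1 and below the control without it.

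**Figure D1:**
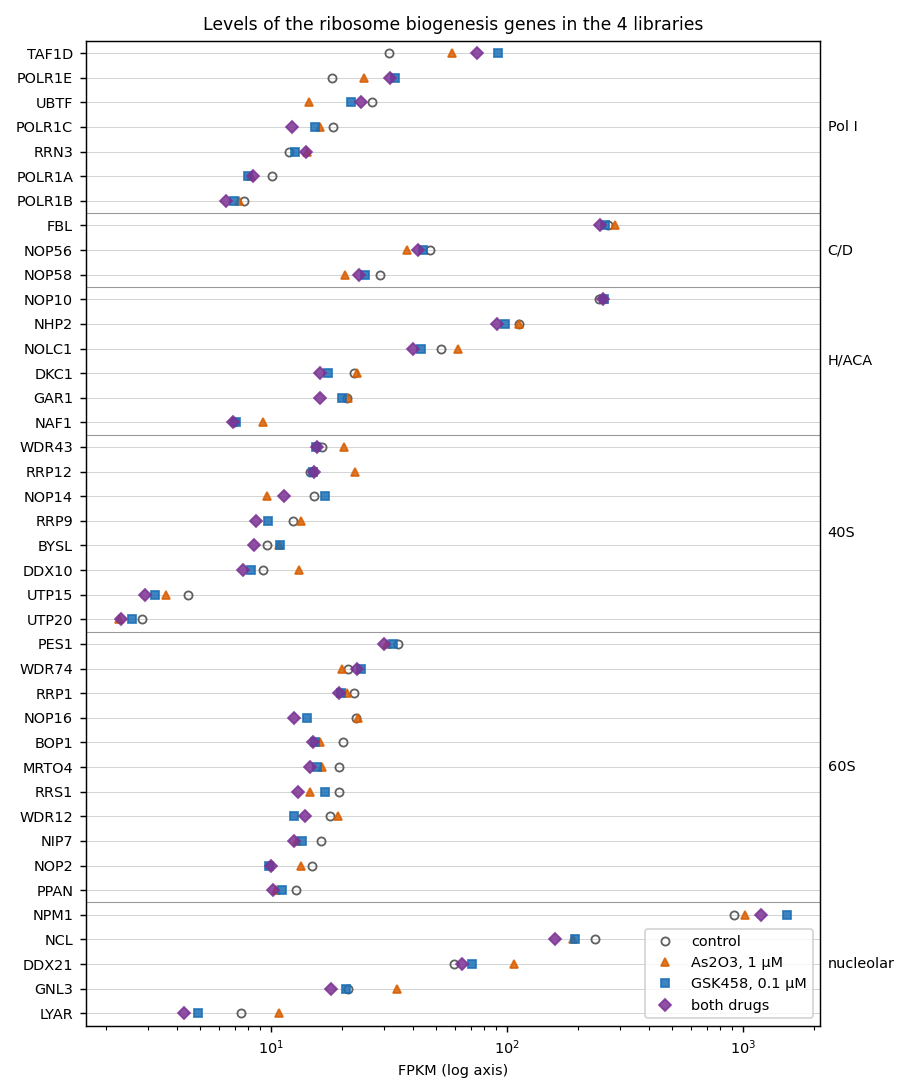
FPKM of the 40 ribosome biogenesis genes (log axis) in the 4 libraries, grouped by role, with 1 point per gene and library. NPM1 lies furthest right at 913 to 1533 FPKM, and the combination lies left of the control at 32 of 40 genes.

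Most members were slightly below the control under GSK458 and under the combination, and about equal numbers lay on each side under As2O3. On the scale of log2(FPKM + 1), on which all differences here are given, the members had a median of 0.01 under As2O3 relative to the control, −0.16 under GSK458 and −0.24 under the combination. The medians of all 12260 genes were 0.01, −0.01 and −0.01. Below the control were 19 of 40 members under As2O3, 29 under GSK458 and 32 under the combination, which is 47.5%, 72.5% and 80% of them beside 48.6%, 50.5% and 51.1% of all genes. These 3 comparisons share the control library.

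Few members were far from the control. Under As2O3 6 of 40 members (15%) were at least 1.5-fold apart, beside 13.9% of all genes. TAF1D, RRP12, GNL3 and DDX21 were the 4 higher ones (background 7.43%), and UBTF and NOP14 the 2 lower ones (background 6.45%). Under GSK458 4 of 40 (10%) were this far apart, beside 18.9% of all genes. They were TAF1D, POLR1E and NPM1 on the higher side (background 8.61%) and NOP16 on the lower side (background 10.3%). Under the combination it was again 4 of 40 (10%), beside 21.6% of all genes. TAF1D and POLR1E were higher (background 9.93%), and NOP16 and LYAR lower (background 11.7%). Only TAF1D was 2-fold apart from the control in any of these comparisons, higher under GSK458 and under the combination. Of all genes 2.35% and 3.25% were that much higher there, and 3.87% and 4.31% that much lower. With each library rescaled to the same sum the members were split 3 higher and 4 lower for GSK458 and 2 higher and 6 lower for both drugs, against 3 and 1 and against 2 and 2 with the values as deposited. Under that scaling 14.7% and 14.6% of all genes were lower by as much, beside 10% and 15% of the members. Of all genes 7.46% and 10.2% were higher by as much. That scaling moved the median of all genes to −0.10 for GSK458, and relative to it the members were at −0.17 for GSK458 and −0.24 for both drugs. It put 24 of 40 members below the control for As2O3, where it moved the median of all genes to −0.07. Relative to that median the members were at −0.01.

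**Figure D2:**
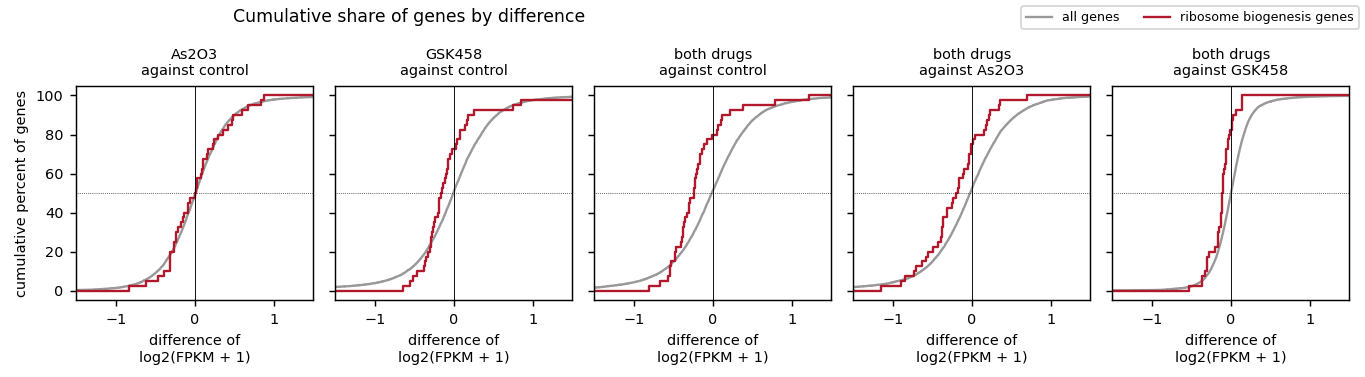
Cumulative percent of genes (vertical axis) by difference of log2(FPKM + 1) (horizontal axis) in the 5 comparisons, for the 40 ribosome biogenesis genes (red) and all 12260 genes (grey). The red curve lies left of the grey one around the median in the 4 comparisons other than As2O3 against control, where the medians are both 0.01.

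Genes of cell division stood further from the control than the members under GSK458 and under the combination. The median of 8 proliferation genes was 0.08 under As2O3, −2.81 under GSK458 and −1.93 under the combination, with all 8 at least 1.5-fold lower under GSK458 and under the combination. MKI67, the antigen Ki-67, stood at 31.7 FPKM without drugs, 33.6 under As2O3, 2.08 under GSK458 and 7.21 under the combination. The cytosolic ribosomal proteins, the final cargo of the pathway, had medians of 0.08, 0.53 and 0.32 in these comparisons over 83 genes, above the control in all 3. Their part in the members' differences was not tested.

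Promoter sequence was compared because members of this pathway are known as targets of MYC, which binds the E-box CACGTG. RefSeq windows of 300 bases, from 250 before to 50 after an annotated start in build GRCh38.p14, were matched by symbol for 33 of the 40 members, with 43 windows in all. The letters CACGTG, which read the same on both strands, stood in 14 of 43 member windows (32.6%), beside 7.26% of all 35116 windows of the table and 9.27% of the windows of genes with at least 1 FPKM. The 141 windows of other genes of the pathway, described further on, held it in 24.1%. These 14 windows belonged to 14 members, FBL, NOP10, GAR1, UTP20, WDR43, NOP14, RRP9, BYSL, PES1, NOP2, MRTO4, GNL3, LYAR and DDX21. Among RNA polymerase I and its factors, no gene with a window had the letters. POLR1E, NOP58, NAF1, NOLC1, RRP12, BOP1 and RRS1 have no window and were not searched. The windows below show the E-box in capitals with 12 bases on each side, for the most abundant member of each role group that has one and for members at least 1.5-fold apart.
FBL, chr19:39846356-39846385, minus strand: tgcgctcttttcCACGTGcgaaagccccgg
NOP10, chr15:34343130-34343159, minus strand: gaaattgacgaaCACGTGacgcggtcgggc
WDR43, chr2:28894658-28894687, plus strand: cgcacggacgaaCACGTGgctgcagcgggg
NOP14, chr4:2963374-2963403, minus strand: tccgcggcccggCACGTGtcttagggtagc
PES1, chr22:30591880-30591909, minus strand: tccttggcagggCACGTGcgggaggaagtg
GNL3, chr3:52686026-52686055, plus strand: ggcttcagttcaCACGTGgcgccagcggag
LYAR, chr4:4290068-4290097, minus strand: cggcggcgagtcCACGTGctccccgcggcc
DDX21, chr10:68956604-68956633, plus strand: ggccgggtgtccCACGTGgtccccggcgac
Against the control with As2O3, the 14 members with these letters had a median of 0.08 and the 19 without had −0.08. Over all genes these medians were 0.00 and 0.01. With both drugs the members' medians were −0.22 with an E-box and −0.24 without, and with GSK458 they were −0.07 and −0.19. These gaps were not tested. Against As2O3 alone the combination had medians of −0.34 and −0.11, beside −0.04 and −0.04 for all genes with and without the letters. In the other pathway genes these medians were closer to each other, at −0.22 for 32 with the letters and −0.14 for 90 without.

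Of the other motifs searched on both strands, the ETS motif CCGGAAGT stood in 9 of 43 member windows (20.9%), beside 4.14% of all windows, 7.67% of those of genes with at least 1 FPKM and 26.2% of those of the other pathway genes, a larger share than the members had. The palindromic NRF1 motif stood in 2 of 43 beside 1.24% of all windows. A match is only a run of letters, and binding was not measured.

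A run of pyrimidines that opens with C at the start of the message is the mark of messages whose translation mTOR is known to control, and ribosomal protein genes carry it. A search for it was added after the values were seen, as a C at the annotated start followed by pyrimidines for at least 5 bases in all. It was found in 4 of 43 member windows (9.30%), beside 4.07% of all windows, 5.29% of those of genes with at least 1 FPKM and 5.67% of those of the other pathway genes, and annotated starts can be off by some bases. The 4 windows are shown with 10 bases before the start, which is the first base in capitals, and the whole tract in capitals.
TAF1D, chr11:93741476-93741505, minus strand: aatagccaacCCTTTTCTTCCgcacggttg
FBL, chr19:39846360-39846389, minus strand: cgcctgcgctCTTTTCCacgtgcgaaagcc
NPM1, chr5:171387839-171387868, plus strand: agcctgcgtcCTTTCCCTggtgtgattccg
DDX21, chr10:68956160-68956189, plus strand: ggggaactacCTCTTCCTCTCCacgcggtt
The tracts were 11 bases in TAF1D, 7 in FBL, 8 in NPM1 and 12 in DDX21. With GSK458 the median difference was 0.50 over these 4 genes, of which 3 were higher, and −0.19 over the 29 members without the tract, of which 5 were higher. With As2O3 the 4 genes had the same median of 0.50, all 4 being higher, and for GSK458 added to As2O3 it was 0.01, with 2 higher and 2 lower. With GSK458 the median over all genes was 0.17 for 697 genes with the tract and −0.03 for 8535 without, and 0.14 for 649 genes with the tract when ribosomal proteins were left out. Of 8 other pathway genes with a tract, 4 were higher and 4 lower under GSK458. The tract of DDX21 lies in another of its windows than its E-box.

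Among the genes of RNA polymerase I, 3 of 7 were higher and 4 lower than the control under each drug and under the combination. Under As2O3 the group held both the highest and the lowest member. TAF1D is a subunit of the selectivity factor that brings the polymerase to the ribosomal RNA promoter. It stood at 31.5 FPKM without drugs, 58.5 under As2O3, 91.9 under GSK458 and 74.6 under the combination. All 3 treated libraries were above the control, with differences of 0.87, 1.51 and 1.22, and GSK458 placed it at percentile 99.3 of all genes. TAF1D holds small nucleolar RNA genes in its introns, and the assignment of their reads remains unknown here. The other members were not checked for such genes, so this limit may not be particular to TAF1D.

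POLR1E, a subunit of the polymerase that takes part in initiation, had the same order of libraries. Its level was 18.1 FPKM without drugs, 24.7 under As2O3, 33.4 under GSK458 and 31.9 under the combination. The differences from the control were 0.42, 0.85 and 0.78. For this gene GSK458 alone and the combination were close, at a difference of −0.07.

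UBTF, the upstream binding factor that keeps ribosomal RNA genes open, was lowest in the As2O3 library. It stood at 26.6 FPKM without drugs, 14.5 under As2O3, 21.7 under GSK458 and 24.1 under the combination. As2O3 differed from the control by −0.83, at percentile 2.54 of all genes, and the combination from As2O3 by 0.69. The combination and the control were close, at −0.14.

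The other polymerase genes differed less. POLR1C, a subunit shared with RNA polymerase III, stood at 18.3 FPKM without drugs, 16.1 under As2O3, 15.3 under GSK458 and 12.3 under the combination, a difference of −0.54 in the combination. The catalytic subunits POLR1A and POLR1B were below the control in all 3 treated libraries, at −0.06 to −0.30. RRN3, the growth-regulated factor that links the polymerase to its promoter, was 0.08 to 0.23 above the control. RRN3 has pseudogenes, of which RRN3P1 was listed at 0.53 to 2.50 FPKM, so its value is uncertain.

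In the box C/D particle no gene was 1.5-fold apart in any of the 5 comparisons. FBL, the methyltransferase fibrillarin, stood at 268 FPKM without drugs, 285 under As2O3, 259 under GSK458 and 248 under the combination. NOP56 and NOP58, the scaffold pair of the particle, were lowest in the As2O3 library. NOP58 stood at 28.8 FPKM without drugs, 20.6 under As2O3, 24.9 under GSK458 and 23.5 under the combination. NOP56 stood at 47.2, 37.7, 44.1 and 41.9 FPKM in that order of libraries. Their differences with As2O3 were −0.46 and −0.32, while FBL was at 0.09.

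In the box H/ACA group all 6 genes were lower in the combination than with As2O3 alone, with a median of −0.37 beside −0.02 for all genes. NOP10, a small core protein of the particle, differed by at most 0.08 from the control, at 245 FPKM without drugs, 258 under As2O3, 258 under GSK458 and 256 under the combination. NOLC1, a chaperone of nucleolar particles, was the gene of the group that was at least 1.5-fold apart. Its level was 52.2 FPKM without drugs, 62.2 under As2O3, 43.4 under GSK458 and 39.9 under the combination, which put the combination at −0.63 from As2O3 alone.

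DKC1, the pseudouridine synthase dyskerin, had both GSK458-treated libraries below the others. It stood at 22.5 FPKM without drugs, 23.1 under As2O3, 17.3 under GSK458 and 16.1 under the combination. Against the control the combination was at −0.46 for DKC1, −0.36 for GAR1 and −0.31 for NHP2, both further proteins of the particle. NAF1, the assembly factor that GAR1 replaces, was at 0.36 with As2O3 and at −0.01 with both drugs.

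Of the 8 genes of the small subunit processome and 40S maturation, 7 were below the control in the combination, with a median of −0.23 and none 1.5-fold apart. WDR43, a processome protein tied to transcription of ribosomal RNA, was the most abundant by its mean. It stood at 16.5 FPKM without drugs, 20.4 under As2O3, 15.4 under GSK458 and 15.6 under the combination, so only As2O3 stood above the others.

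RRP12, which acts in the export of the small subunit, and DDX10, an RNA helicase of the processome, had the same shape. RRP12 stood at 14.6 FPKM without drugs, 22.6 under As2O3, 15.03 under GSK458 and 15.2 under the combination. DDX10 stood at 9.23, 13.1, 8.23 and 7.63 FPKM in that order of libraries. As2O3 was 0.60 above the control for RRP12 and 0.46 for DDX10, and the combination was at −0.55 and −0.71 from As2O3 alone. The call for RRP12 ended at 0.50 with a pseudocount of 5 FPKM, at 0.53 with rescaled sums and at 0.54 with upper-quartile scaling.

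NOP14, a processome scaffold, was low in both libraries with As2O3. It stood at 15.3 FPKM without drugs, 9.58 under As2O3, 17.0 under GSK458 and 11.4 under the combination. As2O3 differed from the control by −0.62, and the combination from GSK458 alone by −0.54, the lowest value of the module in that comparison. With a pseudocount of 5 FPKM the first value was −0.47 and under 1.5-fold. An antisense transcript of the locus, NOP14-AS1, was listed at 2.43 to 3.93 FPKM, and the strand setting of the counting is not given.

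The remaining genes of this group kept within 1.5-fold in each comparison. RRP9, a protein of the particle that guides the first cuts, was at −0.48 in the combination and −0.58 from As2O3 alone. UTP15 was at −0.48 in the combination, and UTP20 at −0.22. BYSL, a late factor of the small subunit, was at 0.17 with GSK458 and −0.16 with both drugs.

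In the large subunit group most genes lay on the same side of the control. In the combination 10 of 11 genes were below the control, with a median of −0.36, and with GSK458 alone 10 of 11 were, with a median of −0.25. PES1, BOP1 and WDR12 form a complex needed for the large subunit. PES1 stood at 34.5 FPKM without drugs, 30.9 under As2O3, 32.9 under GSK458 and 30.1 under the combination. Differences in the combination were −0.19 for PES1, −0.41 for BOP1 and −0.33 for WDR12.

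NOP16, a nucleolar protein of the large subunit path, was the lowest member relative to the control under GSK458 and under the combination. Its level was 22.8 FPKM without drugs, 23.3 under As2O3, 14.2 under GSK458 and 12.6 under the combination. Both libraries with GSK458 were below both without it. GSK458 alone was at −0.65 from the control and the combination at −0.81 from it, and at −0.84 from As2O3 alone. NOP2, a methyltransferase of large subunit RNA, was at −0.55 with GSK458 and −0.53 with both drugs. With a pseudocount of 5 FPKM the difference of NOP16 with GSK458 was −0.53 and under 1.5-fold.

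The rest of the group kept within 1.5-fold of the control. RRS1, which helps to place a ribosomal RNA in the large subunit, was at −0.55 in the combination, MRTO4 at −0.38, NIP7 at −0.36, PPAN at −0.30 and RRP1 at −0.20. WDR74 was the exception at 0.11. Reads of PPAN can be shared with the readthrough PPAN-P2RY11, listed at 1.31 to 2.08 FPKM, so the value of PPAN is uncertain.

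Among the 5 nucleolar proteins with several roles, 3 were at least 1.5-fold lower in the combination than under As2O3. DDX21, a helicase that acts on both polymerase I transcription and RNA processing, stood at 59.7 FPKM without drugs, 107.03 under As2O3, 71.3 under GSK458 and 64.2 under the combination. GNL3, the nucleolar GTPase nucleostemin, stood at 21.2, 34.3, 20.8 and 18.02 FPKM in that order of libraries. LYAR, a zinc finger protein of growing cells, stood at 7.43, 10.8, 4.90 and 4.29 FPKM. In all 3 genes the As2O3 library was the highest.

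With As2O3 their differences from the control were 0.83, 0.67 and 0.48. The combination was at −0.73 for DDX21, −0.89 for GNL3 and −1.15 for LYAR from As2O3 alone, and LYAR was the lowest of all members there. Against the control, LYAR was also low with both drugs, at −0.67, and that value was −0.42 with a pseudocount of 5 FPKM. All 3 have an E-box in the windows shown above, as do 14 of the 33 members with a window. DDX10 and NOP16, also at least 1.5-fold lower in the combination than under As2O3, have windows without one. NOLC1, lower by as much, has no window. Among members with a window, 3 of 14 with the E-box and 2 of 19 without it were this much lower. Over all genes with a window, 127 of 1161 with the E-box and 974 of 8071 without it were. A link to the E-box was not tested.

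NPM1 was highest with GSK458, at 0.75 from the control, and at 0.38 with both drugs. It has processed pseudogenes, so its value is uncertain. NCL, nucleolin, differed from NPM1 in direction. It stood at 236 FPKM without drugs, 190 under As2O3, 193 under GSK458 and 159 under the combination, with the combination at −0.57.

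**Figure D3:**
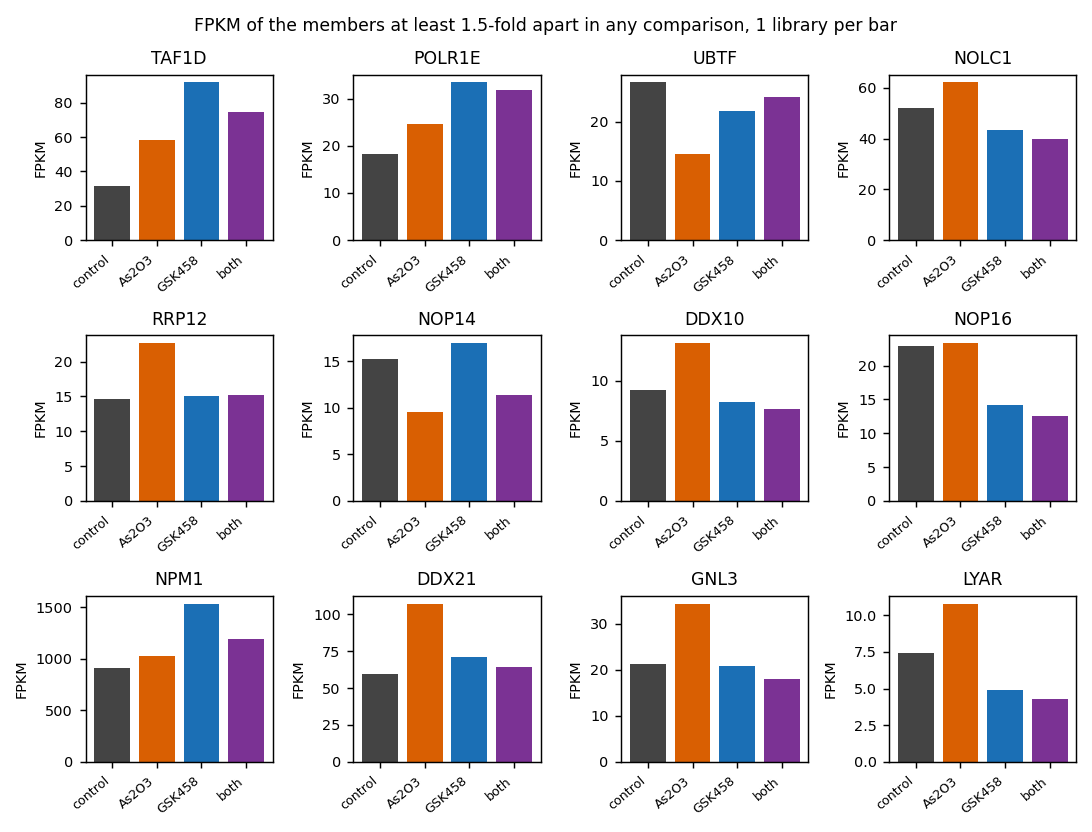
FPKM (vertical axes from 0) in the 4 libraries for the 12 members at least 1.5-fold apart in any of the 5 comparisons, with 1 library per bar and no error bar. TAF1D, POLR1E, NPM1 and NOP14 are highest with GSK458, while DDX21, GNL3, LYAR, RRP12, DDX10, NOLC1 and NOP16 are highest with As2O3. For NOP16 the As2O3 and control bars are close, at 23.3 and 22.8 FPKM.

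Adding GSK458 to As2O3 put 30 of 40 members lower, with a median of −0.19 beside −0.02 for all genes. In this comparison 7 members were at least 1.5-fold apart (17.5%) beside 21.1% of all genes. The 6 lower ones were NOLC1, DDX10, NOP16, GNL3, LYAR and DDX21 (background 11.6% for lower genes), and UBTF was higher (background 9.46%). With a pseudocount of 5 FPKM UBTF, NOLC1 and DDX10 were at 0.58, −0.58 and −0.52 and under 1.5-fold, and NOLC1 was at −0.51 with upper-quartile scaling. With upper-quartile scaling the median was −0.0696 with 23 of 40 members lower, while that of all genes was 0.09, so relative to all genes the members were at −0.16. Adding As2O3 to GSK458 put 33 of 40 lower, with a median of −0.11 beside 0.00 for all genes. None was 1.5-fold apart, beside 3.73% of all genes (2.19% higher and 1.53% lower). The 154 other pathway genes, described further on, did not share this shift. Their median in this comparison was 0.01, with 73 lower (47.4%).

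**Figure D4:**
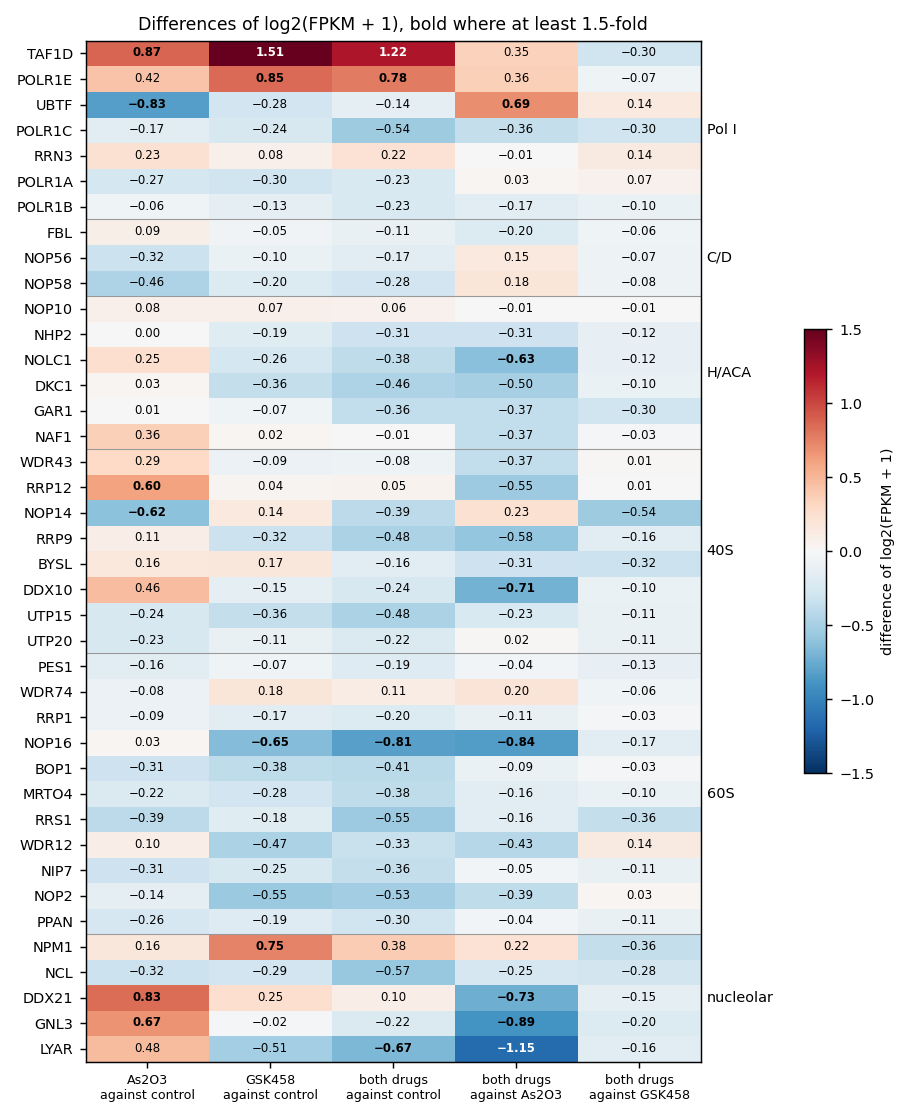
Differences of log2(FPKM + 1) for the 40 members (rows, by role) in the 5 comparisons (columns), from blue for lower to red for higher, with values at least 1.5-fold apart in bold. The last column holds no bold value, and the large subunit rows are blue in 10 of 11 genes with GSK458 and with both drugs.

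Each drug could be read from a pair of comparisons that share no library. For GSK458, against the control and on top of As2O3, 29 of 40 members (72.5%) had the same sign beside 71.3% of all genes. Of these, 24 members (60%) were lower in both, beside 37.0% of all genes. For As2O3, against the control and on top of GSK458, 20 of 40 (50%) had the same sign beside 58.4% of all genes, and 17 were higher in the first and lower in the second. These shares were not tested.

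**Figure D5:**
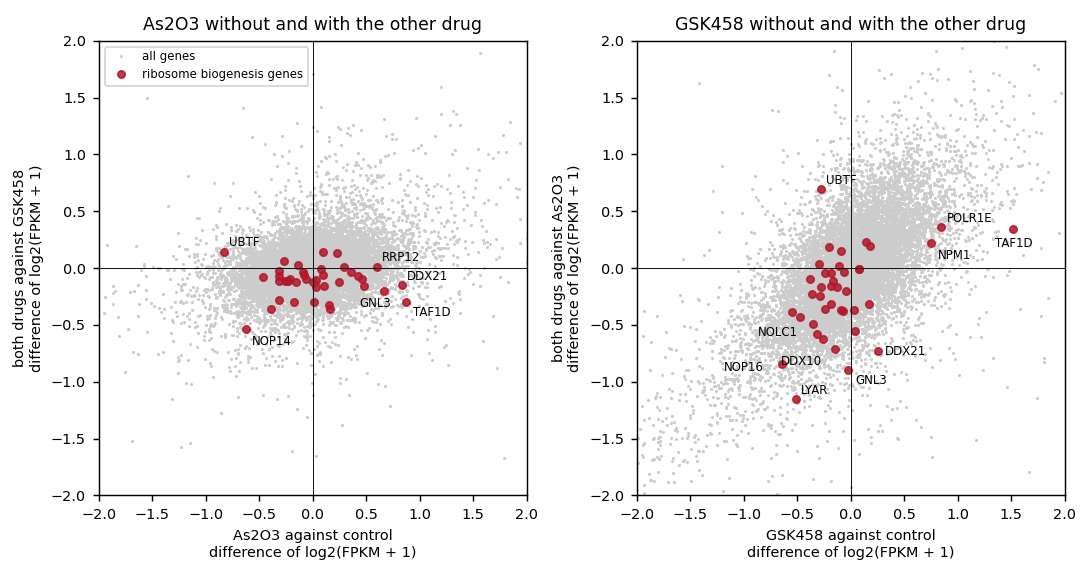
Difference of log2(FPKM + 1) for As2O3 without GSK458 (left panel, horizontal axis) and with it (vertical axis), and for GSK458 without and with As2O3 (right panel), for all genes (grey) and the 40 members (red), cut off at 2 on each axis. In the right panel 24 members lie lower left, and TAF1D, POLR1E and NPM1 lie upper right.

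The sum of the single-drug differences was compared with the combination through the departure from additivity, the combination minus each drug plus the control. For 6 of 40 members (15%) it reached 1.5-fold, beside 14.1% of all genes. UBTF was above additivity at 0.98 (background 6.53%). TAF1D at −1.17, DDX21 at −0.98, GNL3 at −0.87, LYAR at −0.64 and RRP12 at −0.59 were below it (background 7.57%). All 6 box H/ACA genes were below 0, at −0.09 to −0.39, while 10 of 11 large subunit genes were above it, at up to 0.29. Of all genes 50.4% were below 0, and of the 55 other large subunit factors 32 were, so those lay mostly on the other side.

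The other genes of the pathway were set beside the members. Of 155 further factors, 154 reached 1 FPKM, and their medians relative to the control were 0.04 under As2O3, −0.12 under GSK458 and −0.16 under the combination. In the combination 100 were below the control, 15 of them at least 1.5-fold beside a background of 11.7%, and 10 were higher by as much beside 9.93%. By list, the medians in the combination were −0.20 for 14 further polymerase I genes, −0.31 for 18 particle and modification factors, −0.14 for 50 small subunit factors, −0.02 for 55 large subunit factors and −0.25 for 17 genes of the exosome and trimming.

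Several of these genes were further from the control than most members. WDR18, of the large subunit path, stood at 58.5 FPKM without drugs, 25.6 under As2O3, 32.4 under GSK458 and 24.3 under the combination. WBSCR22, a small subunit RNA methyltransferase, stood at 77.2, 48.3, 39.7 and 33.4 FPKM, and RUVBL1, an ATPase of particle assembly, at 47.5, 37.7, 27.2 and 23.0 FPKM. All 3 were below the control in each treated library. EXOSC8, of the RNA exosome, stood at 15.1, 17.6, 6.18 and 6.93 FPKM, with both libraries that had GSK458 below the others.

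On the higher side, NOB1, the nuclease that makes the last cut of small subunit RNA, stood at 74.7 FPKM without drugs, 144 under As2O3, 157 under GSK458 and 149 under the combination. POLR1D, shared by polymerases I and III, stood at 82.6, 103, 161 and 140 FPKM, and RSL24D1, a large subunit factor, at 81.6, 122, 162 and 130 FPKM. Both had the order of TAF1D and POLR1E, with GSK458 highest and the control lowest. RIOK3, a kinase of small subunit maturation, was at 1.07 with both drugs, and DDX52, a helicase, at 0.77.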

How the data were processed

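RNA of 4 cultures of TOV21G cells was sequenced, with 1 library for each group. The authors deposited 1 table of FPKM values, and the libraries were made with a stranded mRNA kit per the labels' protocols. Per the submitters' processing notes, the build was hg19 and the tools were Cuffdiff 2.2.1, TopHat2 2.1.1, SAMtools 0.1.18 and Bowtie2 2.2.8, with no roles named. Annotation, strand setting and treatment of multi-mapped reads were not given in the sources used here.

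The values were used as deposited, with no further normalization. Columns were matched to samples by their titles. Differences of log2(FPKM + 1) were taken for the 12260 of 26255 symbols whose mean over all libraries reached 1 FPKM. A gene was counted as apart at 1.5-fold on that scale. Since every group is a single library, there is no test and no p-value. FPKM keeps no counts, so no counting interval was computed. All 40 members are named. All 4 values are given for those at least 1.5-fold apart in any of the 5 comparisons, for the most abundant of each role group and, in a role group with none apart, for up to 2 with the largest difference of both drugs against the control. Further members, and the values for the readthrough, antisense and pseudogene transcripts, were added after the values were seen. The 155 other pathway genes come from a list of textbook ribosome biogenesis factors, of which those furthest apart are named, 4 each way for both drugs and 2 each way for GSK458.

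The members and lists were chosen with earlier results of these data known. Promoter windows were taken by symbol from RefSeq, build GRCh38.p14. The search for a pyrimidine tract at the start was added after the values were seen. The counting was checked on simulated data with planted fold changes. These data were copies of the control without noise, so the check covers the arithmetic only and not differences between single libraries. The alternatives were a 2-fold threshold, 3 scalings, pseudocounts of 0.1 and 5 FPKM, and filters at 0 and 5 FPKM. Python 3.11.15, numpy 2.4.6, pandas 2.3.3 and matplotlib 3.10.9 were used.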

Additional observations from a re-analysis of the deposited data

Results flagged for a closer look

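For 4 members the difference made by a drug had opposite signs without and with the other drug and was at least 1.5-fold on one side. Each rests on 4 single libraries and was not tested. As2O3 gave 0.87 without and −0.30 with GSK458 for TAF1D, a change of −1.17, and 0.67 and −0.20 for GNL3, a change of −0.87. For DDX21 As2O3 gave 0.83 and −0.15, and GSK458 gave 0.25 without and −0.73 with As2O3, both a change of −0.98. For UBTF As2O3 gave −0.83 and 0.14, and GSK458 gave −0.28 and 0.69, both a change of 0.98. The change is the same for both drugs by construction.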

How the results depend on the processing

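No paired analysis was possible because each group has 1 library. Of the recomputed medians and counts, 98 moved by at most 0.1 for a median or 1.5 times for a count, and 17 moved more. Each of the 2 filters and the scaling by median of ratios gave 15 of these 98. The filter at 0 FPKM cannot move the members' values, and the one at 5 FPKM only took out UTP15 and UTP20. Scaling by median of ratios left the values close to those deposited, so these settings say little about stability. No median of at least 0.1 in size changed sign. The medians over all settings ran from −0.08 to 0.02 for As2O3, −0.27 to −0.10 for GSK458, −0.31 to −0.18 for both drugs, −0.20 to −0.07 for both against As2O3 and −0.12 to −0.06 for both against GSK458. The median moved to −0.27 for GSK458 with rescaled sums and, with upper-quartile scaling, to −0.0696 for both against As2O3, where the median of all genes was 0.09. With a pseudocount of 0.1 FPKM, 3 members were at least 1.5-fold lower with GSK458, beside 12.2% of all genes. With 5 FPKM, 1 member was lower under As2O3, 0 under GSK458 and 1 under the combination, and 0 were higher for both against As2O3. The shares of all genes were 2.31%, 6.22%, 7.13% and 3.56% in that order. With rescaled sums, 4 members were lower with GSK458 and 6 with both drugs, beside 14.7% and 14.6% of all genes. At 2-fold, 0 members were higher and 0 lower under As2O3, beside 2.07% and 1.41% of all genes. Under GSK458 1 was higher and 0 lower, beside 2.35% and 3.87%. Under the combination 1 was higher and 0 lower, beside 3.25% and 4.31%. For both against As2O3 0 were higher and 1 lower, beside 2.28% and 4.27%. The counts of members are small, so 1 or 2 genes move them. The pseudocount and threshold act by construction, and for the scalings the cause was not tested. Of the recomputed values for single members, 10 fell under 1.5-fold and none changed sign. The depth is unknown, which limits low genes such as UTP20 and LYAR most.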

Other observations

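MYC, a transcription factor known to drive this pathway, stood at 45.2 FPKM without drugs, 96.2 under As2O3, 88.4 under GSK458 and 57.0 under the combination. Both single-drug libraries were above the other pair, while the members' median was lowest with both drugs. MXI1, a repressor that competes for the partner MAX, stood at 16.5, 43.5, 31.0 and 36.5 FPKM in that order of libraries, and MXD1, of the same family, at 2.18, 6.95, 2.21 and 2.91 FPKM. MXD4, also of that family, was lowest with As2O3, at 38.1, 29.4, 44.5 and 40.3 FPKM. MAX stood at 19.5, 17.1, 25.6 and 27.1 FPKM. RICTOR, a subunit of the second mTOR complex, stood at 3.55, 5.20, 6.91 and 7.52 FPKM, while RPTOR, of the first, stood at 8.24, 7.35, 5.60 and 5.51 FPKM.
These genes come from a list of 12 growth regulators, whose median relative to the control was 0.29 under As2O3, 0.21 under GSK458 and 0.27 under the combination, and they were named after their values were seen.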
